A study of Mus musculus with 18 samples.

Results

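Whole-kidney RNA taken 7 days after folic acid, when scarring sets in, was compared directly with RNA taken 1 day after it, during acute tubular injury. The members are the 3 libraries labelled FA7day and the 3 labelled FA1day, chosen by their time label alone, 6 of the 18 libraries of the time course. All mice were male and of the Balb/c strain with no altered gene named. The treated ones were given 250 mg/kg of folic acid in 0.3 M sodium bicarbonate as 1 injection into the peritoneum, and the 3 untreated kidneys used here as a reference level were given nothing. There was no group with bicarbonate alone, so against untreated kidney the effects of folic acid and of its vehicle cannot be told apart. Both groups compared here had both, so time after the injection is what differs between them by design. Nothing in the labels says that the 3 libraries of a time come from 3 animals, so each p-value rests on a spread between libraries that may be technical.

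A high dose of folic acid damages the renal tubule, chiefly the proximal tubule that reclaims glucose, phosphate and amino acids from the filtrate. Injured tubule cells lose their transporters, switch on injury and stress genes, and then either recover or persist in an altered state. During the following days macrophages gather and fibroblasts lay down extracellular matrix, the protein scaffold whose build-up is scarring. Cdh11 (cadherin 11, an adhesion protein of fibroblasts) and Mrc1 (the macrophage mannose receptor CD206) are named as fibrosis markers in the title of the study.

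Reads assigned to genes numbered 26.9 to 54.6 M (M, 1000000 reads) per library at day 1 and 20.7 to 24.2 M at day 7, of which 68.5 to 69.8% and 63.5 to 66.3% came from the mitochondrial genome. Reads that fell outside annotated genes made up 15.2 to 16.5% of the tallied reads at day 1 and 21.7 to 23.6% at day 7, ranges that do not overlap. Counts of genes at equal depth and without the mitochondrial genes are given below, and the part of the reads outside genes in the results was not tested. Levels are given as CPM, counts per M reads on genes, after TMM scaling, which corrects for differences in composition between libraries. Without that scaling the log2 fold changes of all genes shifted by a median of 0.53 towards day 7, so every change here is relative to the bulk of genes. These markers of kidney cells were present at both times: Lrp2 and Slc34a1 of the proximal tubule, Umod and Slc12a1 of the loop of Henle and Aqp2 of the collecting duct, with mean levels from 5.63 CPM (Aqp2) to 396 CPM (Lrp2) at day 1. In RNA from a whole organ, fewer cells of a type and less RNA per cell cannot be told apart. Reads are not marked by molecule, so any bound given for a gene without reads covers counting error only.

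Of 16824 genes tested, 759 (4.51%) differed between the times at an adjusted p under 0.05, 448 of them higher at day 7 (2.66%) and 311 lower (1.85%). With library totals as the only scaling the split became 1128 higher and 81 lower, and of the genes chosen by the naming rule all 84 that rose but only 24 of the 48 that fell passed again. Among genes that passed, the rises were the steeper. Their median log2 fold change was 2.83, against -1.49 for genes that fell and 0.02 over all genes tested. Over 4-fold changes numbered 344 upwards and 79 downwards. Genes with few reads pass only with a large change, and the part of gene level in these differences was not tested. In 747 of the 759 genes the 3 day 7 libraries did not overlap the 3 day 1 libraries, which held for 25.1% of all genes tested. Leaving out 1 library lowered the total, to 383, 363 and 497 without day 1 replicates 1, 2 and 3 and to 505, 435 and 480 without day 7 replicates 1, 2 and 3. After thinning to equal depth 715 genes differed, 689 of them among the 759, and without the mitochondrial genes 753 did, 732 of them among the 759. Against untreated kidney, 1792 of all genes differed at day 1 (10.7%) and 1298 at day 7 (7.72%), and both of these comparisons share the untreated libraries. The untreated mean lay between the means of both times for 249 of the 448 genes that rose (55.6%), above both for 133 (29.7%) and below both for 66 (14.7%). Among all tested genes with a higher day 7 mean these shares were 30.1, 34.4 and 35.5%. Of the 311 genes that fell, the untreated mean lay between for 185 (59.5%), below both for 96 (30.9%) and above both for 30 (9.65%), against 29.4, 40.1 and 30.6% of all tested genes with a lower day 7 mean. These shares describe an order of means and were not tested. Genes that passed were selected for a gap between the times, and a wide gap leaves more room for the untreated mean to lie between. The comparison with all tested genes, most of which did not pass, therefore cannot show a return towards the untreated level.

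**Figure D1:**
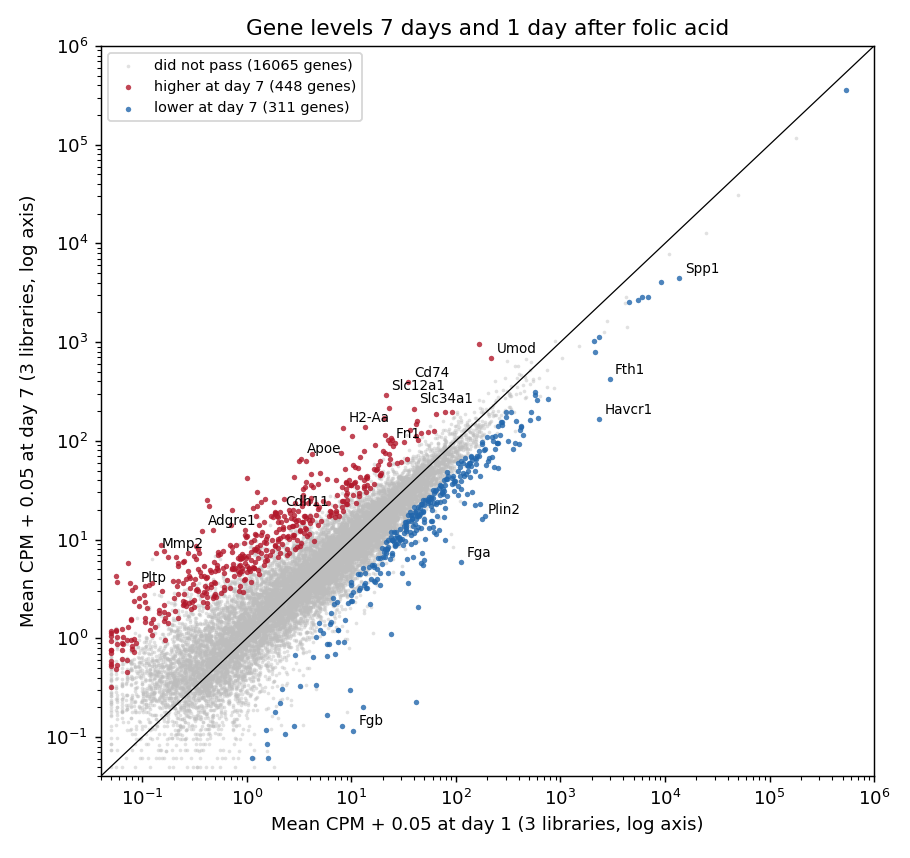
Mean level of each tested gene at day 1 (horizontal axis) and day 7 (vertical axis), both in CPM plus an offset of 0.05 on log axes, 3 libraries per time. Red points are the 448 genes that rose, blue points the 311 that fell, grey points those that did not pass, and the line marks equal levels. Injury genes such as Havcr1 and the fibrinogen genes lie below the line, and macrophage, matrix and tubule genes lie above it.

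The 36 gene lists described here differed widely in how many of their members passed. The macrophage list and the list of the loop of Henle and distal tubule had the highest shares of members that rose, 20 of 44 (45.5%) and 14 of 31 (45.2%), against 2.66% of all genes. The list of NRF2 targets and oxidative stress had the highest share that fell, 14 of 38 (36.8%), followed by tubular injury with 8 of 35 (22.9%), against 1.85% of all genes. NRF2 is a transcription factor that switches on antioxidant and detoxifying genes.

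**Figure D2:**
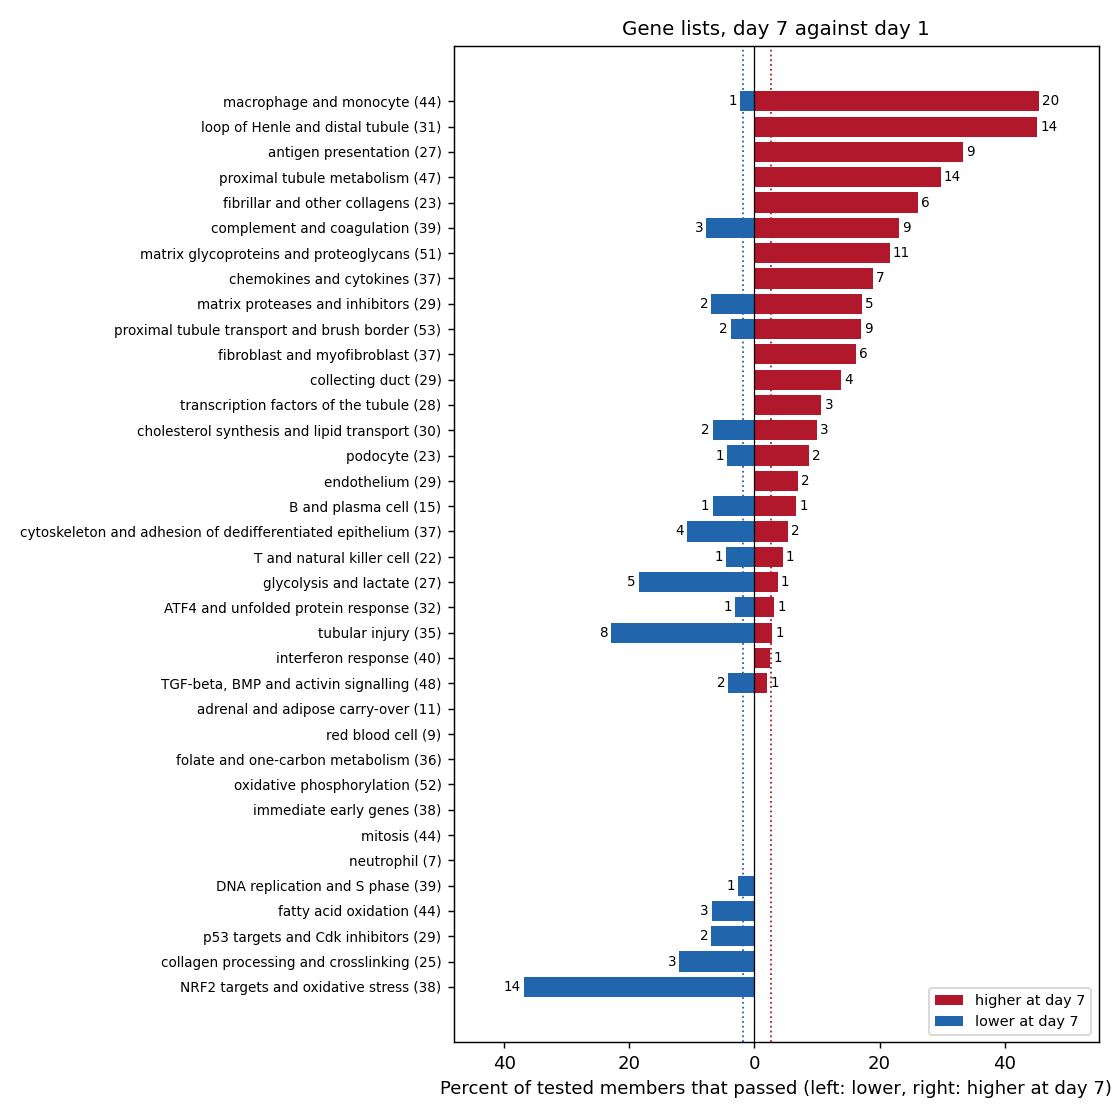
Percent of the tested members of each of the 36 gene lists that rose (red, right) or fell (blue, left) at day 7 against day 1, with the number of genes beside each bar and the number tested in brackets. Dotted lines mark the 2.66% of all genes that rose and the 1.85% that fell. The macrophage and loop lists reach furthest right and the NRF2 list furthest left.

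Several genes of acute tubular injury fell between day 1 and day 7, 8 of the 35 tested, without reaching the untreated level as a list. Havcr1 (ENSMUSG00000040405), which encodes kidney injury molecule 1 on damaged proximal tubule cells, held 2289, 2450 and 2275 CPM in the day 1 libraries and 148, 144 and 205 CPM in the day 7 libraries. The times were far apart, all day 1 libraries lying close together, and the level fell 14.1-fold (log2 fold change -3.82, SE 0.35, adjusted p = 1.44e-05). Untreated kidney held 16.4 ± 6.52 CPM (mean ± SD, n = 3), so the day 7 level was still higher than untreated (log2 fold change 3.33, SE 0.35, adjusted p = 1.92e-05). The log2 fold change and its standard error (SE) come from the fit over all libraries, and a negative value means lower at day 7.

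The fibrinogen genes, which encode the clotting protein made mainly in liver and also induced in injured tubule, fell the most steeply in the injury list. Fga (ENSMUSG00000028001), the alpha chain, held 164, 71.5 and 103 CPM at day 1 and 7.70, 3.63 and 6.31 CPM at day 7 (log2 fold change -4.26, SE 0.57, adjusted p = 0.000229). Fgg (ENSMUSG00000033860), the gamma chain, held 63.1, 31.2 and 35.1 CPM and then 2.70, 1.57 and 1.84 CPM (log2 fold change -4.40, SE 0.69, adjusted p = 0.00112). Their day 7 means of 5.88 and 2.03 CPM lay above the untreated means of 3.13 ± 1.03 and 1.03 ± 0.188 CPM. Neither passed against untreated kidney at day 7 (log2 fold changes 0.89 and 1.00, adjusted p = 0.337 and 0.406). Fgb (ENSMUSG00000033831), the beta chain, held 10.2, 15.7 and 5.03 CPM at day 1, and at day 7 it had reads in 1 library only (0.197, 0 and 0 CPM). Its log2 fold change was -7.17 (SE 1.26, adjusted p = 0.00517) and -11.25 without that library, day 7 replicate 1.

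Plin2, Lrg1 and Tgm1, steep falls that belong to none of the lists, and Sprr1a of the injury list were lower at day 7 too. Plin2, which coats lipid droplets, held 183, 237 and 117 CPM at day 1 and 24.6, 10.4 and 13.2 CPM at day 7 (log2 fold change -3.48, SE 0.43, adjusted p = 0.000138). Lrg1, a secreted glycoprotein of inflammation, fell from 34.8 ± 13.3 to 3.58 ± 1.04 CPM, and Tgm1, a protein-crosslinking enzyme of stressed epithelia, from 46.6 ± 5.68 to 5.80 ± 1.98 CPM. Sprr1a, a small proline-rich protein of the cornified envelope, held 3.50, 10.6 and 11.2 CPM at day 1 and 0.888, 0.855 and 0.833 CPM at day 7. The times did not overlap in Sprr1a, and in the others this was a condition of being named as steep falls. In each of these genes the call held without any 1 of the 6 libraries.

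The injury list stayed above untreated kidney. Its summed level lay at 15700 to 20100 CPM at day 1, 4590 to 7150 CPM at day 7 and 373 to 508 CPM in untreated kidney. Spp1, described below, made up most of this sum in every day 1 and day 7 library. Against untreated kidney, 24 of the 35 tested members were higher at day 1 (background 5.09% of all genes) and 19 at day 7 (background 3.87%), comparisons that share the untreated libraries. Spp1 (osteopontin, a secreted matrix protein), the most abundant member, held 16430, 12040 and 12630 CPM at day 1 and 5989, 3725 and 3575 CPM at day 7 (log2 fold change -1.63, SE 0.42, adjusted p = 0.0296). The times did not overlap, but the call was lost without each library except day 7 replicate 1 (adjusted p 0.0564 to 0.116). Lcn2 (lipocalin 2, an iron-carrier-binding protein) and Clu (clusterin, a chaperone), both standard injury markers, did not pass. Lcn2 held 94.1, 78.4 and 148 CPM and then 102, 55.5 and 52.1 CPM, overlapping (log2 fold change -0.61, SE 0.72, adjusted p = 0.712), and Clu held 312, 304 and 390.0 CPM and then 259, 168 and 209 CPM (log2 fold change -0.66, SE 0.29, adjusted p = 0.213). Counted again, injury genes that fell numbered 6, 5, 6, 8, 6 and 5 when day 1 replicates 1 to 3 and then day 7 replicates 1 to 3 were left out in turn, and 5 with library totals alone.

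Vcam1 (ENSMUSG00000027962), an adhesion molecule for leukocytes that also marks tubule cells failing to repair, was the member of the injury list that rose. It held 28.8, 15.5 and 23.2 CPM at day 1 and 83.3, 144 and 75.6 CPM at day 7 (log2 fold change 2.17, SE 0.40, adjusted p = 0.00371). The untreated mean was 1.59 ± 0.148 CPM, so its level stood above untreated at both times and was higher at the later one.

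Part of the antioxidant genes controlled by NRF2 fell between the times. Of the 38 tested members of the NRF2 list, 14 fell and none rose in edgeR, DESeq2 or limma-voom (0 at an unadjusted p under 0.05), with a median log2 fold change of -0.95. The number that fell was 12, 13, 12, 12, 11 and 13 with the same libraries left out in turn, and 7 with library totals as the only scaling. The summed level of the list was 8460 to 11700 CPM at day 1, 3710 to 5210 CPM at day 7 and 9310 to 9530 CPM in untreated kidney, so at day 7 it lay below both.

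Hmox1 (ENSMUSG00000005413), heme oxygenase 1, which breaks down heme and releases its iron, held 40, 63.4 and 43.4 CPM at day 1 and 9.96, 5.84 and 2.57 CPM at day 7. All day 7 libraries lay below all day 1 libraries (log2 fold change -3.00, SE 0.50, adjusted p = 0.00188), close to the untreated mean of 6.78 ± 2.38 CPM. Fth1 (ENSMUSG00000024661), the ferritin heavy chain that stores iron, held 3485, 2061 and 3299 CPM and then 391, 398 and 474 CPM (log2 fold change -2.81, SE 0.29, adjusted p = 6.79e-05). Its day 7 level was also lower than the untreated mean of 1221 ± 351 CPM (log2 fold change -1.54, SE 0.28, adjusted p = 0.00238). Ftl1, the ferritin light chain, fell from 403 ± 64.8 to 92 ± 20.3 CPM (n = 3 each; log2 fold change -2.13, SE 0.24, adjusted p = 0.000108). Ferritin genes have processed copies elsewhere in the genome, and reads aligning to more than 1 place were tallied apart from genes, so these levels are uncertain.

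A pair of receptors that bring iron into the cell, chosen as steep falls and not members of the NRF2 list, were lower as well. Tfrc (ENSMUSG00000022797), the transferrin receptor, held 76, 89.6 and 68 CPM at day 1 and 6.54, 12.8 and 10.4 CPM at day 7 (log2 fold change -2.97, SE 0.42, adjusted p = 0.000437). At day 7 it too lay below untreated kidney, which held 35.5 ± 2.75 CPM (log2 fold change -1.84, SE 0.41, adjusted p = 0.00913). Timd2 (ENSMUSG00000040413), a mouse receptor for ferritin, held 161, 211 and 204 CPM and then 18.6, 18.3 and 15.2 CPM (log2 fold change -3.46, SE 0.41, adjusted p = 0.000127). Neither gene's times overlapped, which the rule for steep falls required.

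The list also held glutathione and detoxification genes that fell. Gclc, the catalytic subunit of the enzyme that starts glutathione synthesis, held 236, 252 and 210.1 CPM at day 1 and 63.5, 48.6 and 51.1 CPM at day 7 (log2 fold change -2.10, SE 0.27, adjusted p = 0.000169). Gsta2, a glutathione transferase, fell from 7.43 ± 2.55 to 1.16 ± 0.160 CPM. Txnrd1, which recharges thioredoxin, had a log2 fold change of -1.52 (SE 0.32, adjusted p = 0.0104). Ugdh, which makes the sugar acid used in detoxification, had one of -1.93 (SE 0.41, adjusted p = 0.011), a call lost without day 7 replicates 2 and 3 (adjusted p 0.0602 and 0.0518).

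The promoters of this list were searched for the core of the antioxidant response element, TGACNNNGC on either strand, a motif chosen after the values were seen that can overlap the AP-1 motif TGACTCA. It stood in 14 of the 42 promoter windows of the 32 matched list genes (33.3%), in 12.4% of all windows and in 14.0% of those of tested genes. Each window reached from 250 bases before to 50 after a gene start in RefSeq (GRCm38.p6). Among the other lists searched the share ran from 11.4% (proximal tubule metabolism) to 30.8% (12 of 39 windows of the immediate early genes described below, none called). The NRF2 list genes that fell held it in 5 of 15 windows (33.3%), the share of the whole list. Of the genes that fell, 11 had a window and 5 held the core, and a stretch of 120 bases is shown for Txnrd1 (chr10:82859058-82859177 on the plus strand) and Ugdh (chr5:65435892-65436011 on the minus strand), with the core in capitals, because both genes fell and hold it.
Txnrd1: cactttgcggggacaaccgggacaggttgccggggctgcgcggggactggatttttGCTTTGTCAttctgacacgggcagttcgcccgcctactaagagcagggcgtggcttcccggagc
Ugdh: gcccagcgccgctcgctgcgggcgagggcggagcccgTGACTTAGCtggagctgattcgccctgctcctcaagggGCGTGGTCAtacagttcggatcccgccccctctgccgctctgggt
The core lies on the strand opposite to the gene in Txnrd1 and once on each strand in Ugdh. A match is a description of the letters, not of a bound factor.

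Some transporters and enzymes of the working proximal tubule rose between day 1 and day 7, and only part of these passed as still lower than untreated kidney. Slc34a1 (ENSMUSG00000021490), the phosphate transporter of the proximal brush border, held 33.6, 36.6 and 48.8 CPM at day 1 and 142, 247 and 243 CPM at day 7. Every day 7 library was well above every day 1 library (log2 fold change 2.41, SE 0.28, adjusted p = 0.000127), and the day 7 level was still lower than the untreated 707 ± 91.2 CPM (log2 fold change -1.75, SE 0.28, adjusted p = 0.000856). Slc5a12, a lactate transporter of the same membrane, held 26.8, 10.1 and 25.3 CPM and then 95.4, 122 and 128 CPM (log2 fold change 2.48, SE 0.42, adjusted p = 0.00223). Dpep1, a brush border peptidase, rose from 1.35 ± 0.618 to 12 ± 2.34 CPM (n = 3 each, log2 fold change 3.13, SE 0.52, adjusted p = 0.002). At day 7 Slc5a12 was lower than untreated kidney (log2 fold change -1.50, adjusted p = 0.03), and Dpep1 did not pass against it (-1.57, adjusted p = 0.0557). Mep1b and Slc13a2 also rose, each passing in 2 of the 6 fits that left out a library. Against untreated kidney Mep1b was lower at day 7 (-2.48, adjusted p = 0.0081) and Slc13a2 did not pass (-0.30, adjusted p = 0.799).

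Proximal transporters moved in both directions. Of the 53 tested members of that list 9 rose and 2 fell, and its summed level was 3920 to 4450 CPM at day 1 and 3860 to 4730 CPM at day 7, against 10800 to 12000 CPM in untreated kidney. Of these 53, 32 were lower than untreated at day 1 (background 5.56%) and 29 at day 7 (background 3.85%). Lrp2 (megalin, the endocytic receptor for filtered protein), the most abundant panel gene among them, held 388, 399 and 401 CPM at day 1 and 475, 564 and 678 CPM at day 7 (log2 fold change 0.53, SE 0.23, adjusted p = 0.217). Its groups did not overlap, yet it did not pass. Dab2, the adaptor protein that works with megalin, went the other way and fell from 519 ± 93.5 to 198 ± 8.63 CPM (n = 3 each, log2 fold change -1.39, SE 0.19, adjusted p = 0.000304). Untreated kidney held 238 ± 17.8 CPM of Dab2. Its level was higher than untreated at day 1 (log2 fold change 1.12, adjusted p = 0.000723) and did not pass at day 7 (-0.27, adjusted p = 0.446). The other member that fell, Slc13a1 (a sulfate transporter), had a log2 fold change of -0.95 (adjusted p = 0.023) and passed in 2 of the 6 fits that left out a library, failing without day 1 replicates 1 and 3 and day 7 replicates 2 and 3 (adjusted p 0.0779 to 0.0943). At day 7 Slc13a1 was still higher than untreated kidney (293 ± 50 against 147 ± 17 CPM, log2 fold change 1.00, adjusted p = 0.0124). Leaving the libraries out in turn gave 4, 3, 7, 8, 5 and 7 members that rose.

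Of the 47 tested members of the proximal tubule metabolism list, 14 rose, 33 did not pass and none fell in edgeR, DESeq2 or limma-voom (1 lower at an unadjusted p under 0.05). G6pc (ENSMUSG00000078650), glucose-6-phosphatase, the last step of glucose production, held 5.55, 0.922 and 2.80 CPM at day 1 and 77.3, 33.2 and 78.6 CPM at day 7. All day 7 libraries stood far above day 1 (log2 fold change 4.37, SE 0.54, adjusted p = 0.000138), with a log2 fold change of 5.07 without day 1 replicate 1. Untreated kidney held 207 ± 53.3 CPM, above day 7 (log2 fold change -1.71, SE 0.48, adjusted p = 0.0342). Akr1c21, a steroid dehydrogenase, held 8.40, 1.51 and 7.42 CPM and then 38.4, 38.2 and 45.8 CPM (log2 fold change 2.83, SE 0.50, adjusted p = 0.00282), and Cyp2d26, a cytochrome P450, rose from 0.738 ± 0.394 to 8.75 ± 2.12 CPM. At day 7 Akr1c21 and Cyp2d26 were lower than untreated kidney (log2 fold changes -1.60 and -1.65, adjusted p = 0.0439 and 0.0343). Hpd and Ttr, which also rose but lost the call in at least 1 fit with a library left out, did not pass against untreated kidney (-1.41 and -0.82, adjusted p = 0.376 and 0.536). Miox, the kidney enzyme that opens inositol, had a log2 fold change between the times of 2.61 (SE 0.32, adjusted p = 0.000138). With libraries left out in turn, 10, 8, 14, 14, 11 and 10 members rose, 1 fell in the fit without day 7 replicate 2, and the summed level went from 3090 to 3910 to 4160 to 4870 CPM against 15200 to 16900 CPM in untreated kidney.

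HNF1 is a transcription factor of the proximal tubule and liver whose binding site contains the letters GTTAAT. On either strand these 6 letters stood in 11 of 44 windows of the 39 matched genes of the metabolism list (25.0%), in 7.10% of all promoter windows and in 5.03% of the windows of tested genes. In the other lists searched the share ran from 2.56% (immediate early genes) to 13.3% (8 of 60 windows of the proximal transport list). Over all called genes it was 8.58% for those that rose and 7.69% for those that fell. Of the 12 metabolism genes that rose and had a window, 7 held the letters. They are shown in capitals for G6pc (chr11:101367466-101367585 on the plus strand), Akr1c21 (chr13:4573966-4574085 on the plus strand) and Miox (chr15:89334274-89334393 on the plus strand), all from RefSeq GRCm38.p6 and chosen as genes that rose and hold the letters.
G6pc: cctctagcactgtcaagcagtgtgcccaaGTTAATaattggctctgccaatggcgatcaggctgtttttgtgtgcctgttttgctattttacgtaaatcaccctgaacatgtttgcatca
Akr1c21: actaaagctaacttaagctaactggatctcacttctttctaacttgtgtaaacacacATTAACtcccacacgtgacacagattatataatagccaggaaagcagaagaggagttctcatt
Miox: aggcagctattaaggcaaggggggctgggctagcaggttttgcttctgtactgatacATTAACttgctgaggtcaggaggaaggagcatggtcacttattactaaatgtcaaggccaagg
The letters read GTTAAT in the G6pc window and ATTAAC, the opposite strand, in the others. Whether the factor binds there was not measured.

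Of the 31 tested genes of the loop of Henle and distal tubule, 14 rose from low day 1 levels. Slc12a1 (ENSMUSG00000027202), the loop's sodium-potassium-chloride transporter, held 31, 10.6 and 22.9 CPM at day 1 and 224, 346 and 304 CPM at day 7 (log2 fold change 3.76, SE 0.46, adjusted p = 0.000127). At day 7 it did not pass against untreated kidney (log2 fold change -0.96, SE 0.41, adjusted p = 0.175; untreated 567 ± 191 CPM). Umod (uromodulin, the loop's abundant secreted protein) held 249, 119 and 282 CPM and then 739, 650.1 and 676 CPM (log2 fold change 1.67, SE 0.30, adjusted p = 0.00317), and Calb1 (calbindin, which carries calcium in the distal tubule) held 10.4, 9.49 and 10.4 CPM and then 74.8, 90.8 and 172 CPM (log2 fold change 3.48, SE 0.41, adjusted p = 0.000127). No time overlapped the other in these genes.

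Egf (ENSMUSG00000028017), epidermal growth factor, made in the distal nephron, was among them. It held 4.99, 2.50 and 3.50 CPM at day 1 and 38.9, 61.1 and 86.3 CPM at day 7, higher in every library (log2 fold change 4.09, SE 0.46, adjusted p = 0.000124), but stayed below the untreated 306 ± 23.3 CPM (log2 fold change -2.30, SE 0.42, adjusted p = 0.00263). Of the 31 tested loop and distal genes, 19 were lower than untreated at day 1 (background 5.56%) and 4 at day 7 (background 3.85%). The summed level of the list was 1090 to 1320 CPM at day 1, 2480 to 2750 CPM at day 7 and 3660 to 4390 CPM untreated. Leaving the libraries out in turn gave 10, 8, 8, 11, 12 and 9 rises in place of 14. In the collecting duct list 4 of 29 rose, among them Aqp3, a water channel, and the call for each of the 4 was lost in at least 1 fit with a library left out (2, 0, 6, 4, 2 and 3 rises counted in turn).

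**Figure D3:**
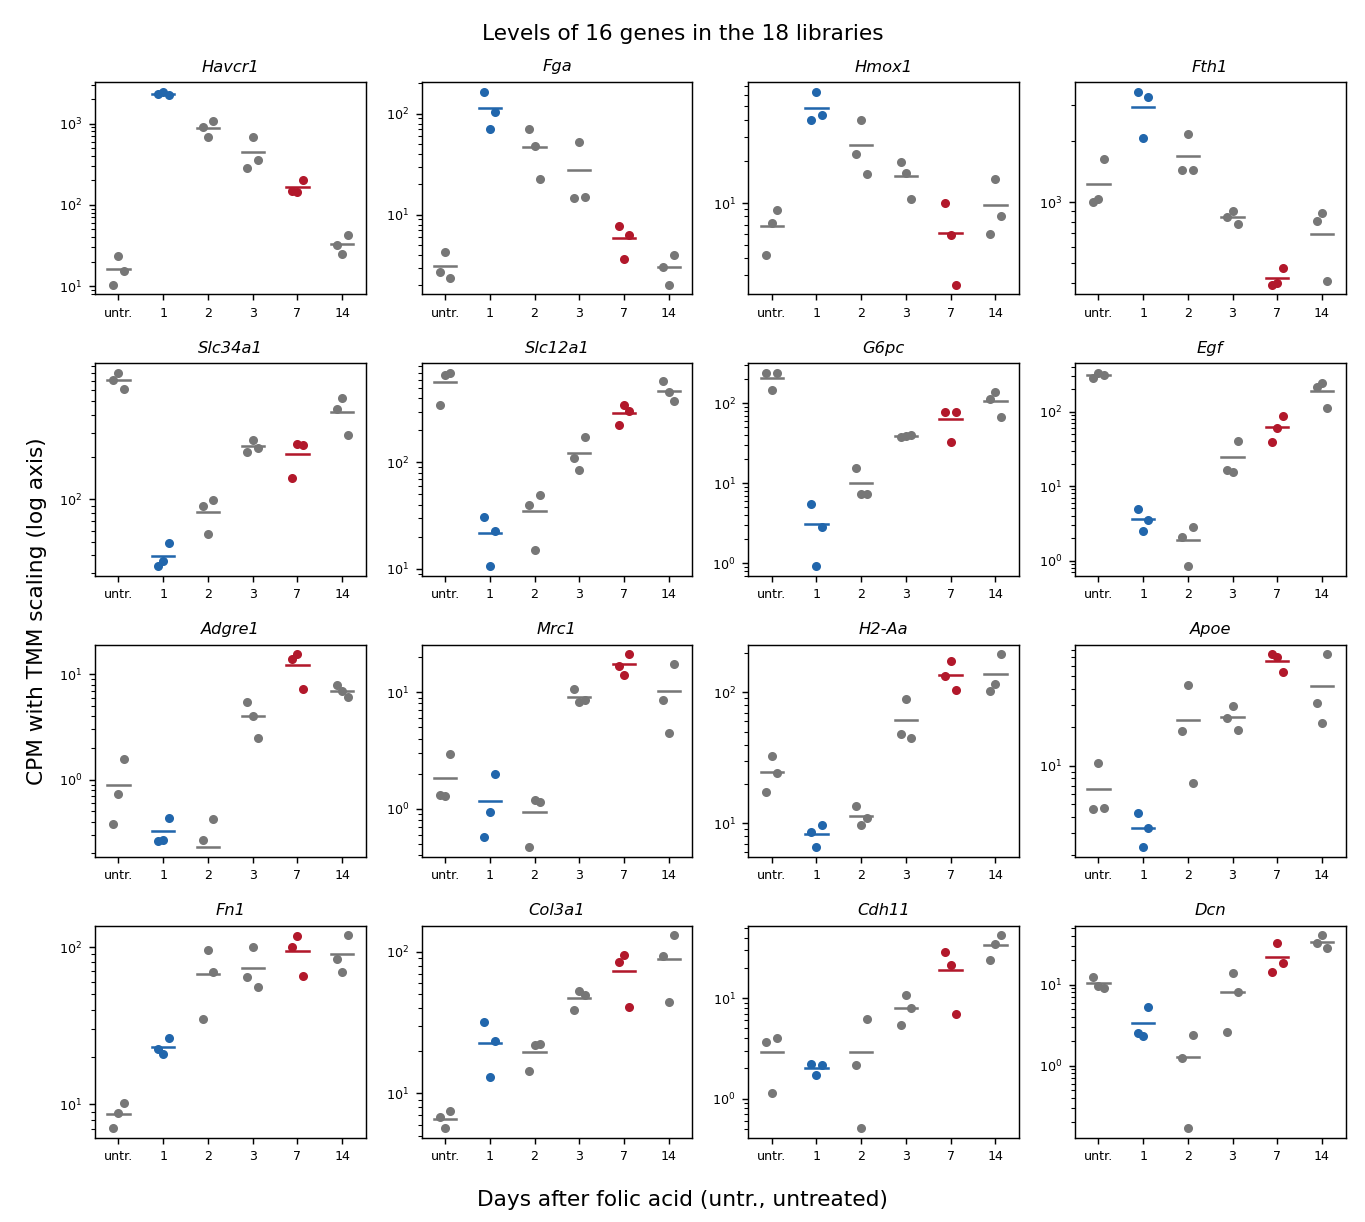
CPM with TMM scaling (log axis) of 16 genes in all 18 libraries, by days after folic acid. Points are libraries, bars are group means, day 1 is blue, day 7 is red and the other groups are grey; libraries without a read are not drawn. The injury and iron genes of the first row start high at day 1, the tubule genes of the second row start low, and the macrophage and matrix genes of the lower rows stand higher at day 7.

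Many macrophage genes rose steeply between day 1 and day 7. Adgre1 (ENSMUSG00000004730), which encodes the macrophage surface protein F4/80, held 0.262, 0.270 and 0.438 CPM at day 1 and 14, 15.5 and 7.32 CPM at day 7. The lowest day 7 library was many times the highest day 1 library (log2 fold change 5.21, SE 0.63, adjusted p = 0.000127), and the untreated level was 0.894 ± 0.608 CPM. Mrc1 (ENSMUSG00000026712), the mannose receptor named in the study's title, held 0.569, 0.945 and 1.99 CPM and then 16.6, 14.1 and 21.2 CPM (log2 fold change 3.86, SE 0.58, adjusted p = 0.000734), with a log2 fold change of 4.48 without day 1 replicate 3.

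Apoe is not a member of the macrophage list, Ms4a7 and Fcgr4 are, and all passed the same test. Apoe (ENSMUSG00000002985), a lipid carrier that macrophages and other cells secrete, held 4.29, 2.32 and 3.24 CPM at day 1 and 73.9, 70.1 and 54.3 CPM at day 7 (log2 fold change 4.34, SE 0.59, adjusted p = 0.0003). Ms4a7, a membrane protein of tissue macrophages, rose from 0.506 ± 0.133 to 7.08 ± 4.90 CPM (n = 3 each; log2 fold change 3.81, SE 0.67, adjusted p = 0.0028). Fcgr4, an antibody receptor, had no reads in the day 1 libraries and held 0.658, 1.82 and 0.937 CPM at day 7, at least 44-fold higher with a floor of 3 counts over the day 1 group. Its untreated mean was 0.749 ± 0.726 CPM, and day 7 did not pass against untreated (log2 fold change 0.61, adjusted p = 0.804).

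Among the 44 tested macrophage genes, 20 of which passed upwards, the median of the log2 fold changes was 2.24. Its summed level was 88.6 to 145 CPM untreated, 181 to 224 CPM at day 1 and 455 to 643 CPM at day 7, with no overlap between the times. The complement component C1q genes were among them: C1qb, a chain of that first component made by macrophages, held 1.14, 1.10 and 2.68 CPM and then 18.3, 18.5 and 15.1 CPM (log2 fold change 3.38, SE 0.70, adjusted p = 0.0092), a call lost without day 1 replicates 1 and 2 (adjusted p 0.0527 and 0.0548). Leaving the libraries out in turn gave 12, 9, 11, 15, 13 and 13 rises. The member that fell was Lgals3 (galectin 3, a sugar-binding protein that injured tubule cells also make), from 28.9 ± 5.80 to 9.98 ± 3.03 CPM (n = 3 each; log2 fold change -1.53, SE 0.41, adjusted p = 0.035), a call lost without any 1 of the 6 libraries (adjusted p 0.0544 to 0.149).

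Of 22 tested T and natural killer cell genes 1 rose and 1 fell (4.55% each way), and of 15 B and plasma cell genes also 1 rose and 1 fell (6.67% each way), shares that rest on single genes, against 2.66% and 1.85% of all genes. Their summed levels were 13.8 to 15.8 and 145 to 153 CPM at day 1 and 22.9 to 32.3 and 82.5 to 105 CPM at day 7. Xbp1, which many cell types use in protein folding stress, made up most of the B and plasma cell sum at day 1 and was the member that fell; without it the sum was 16.8 to 24.1 CPM at day 1 and 39.1 to 55.2 CPM at day 7. The median log2 fold changes of the T and B cell lists were 1.26 and 0.97. None of the 7 tested neutrophil genes passed in edgeR, DESeq2 or limma-voom (0 at an unadjusted p under 0.05), and most of that list was too low to test. Ccl5, the T cell rise, is a chemokine that draws T cells and also monocytes, and it held 0.131, 0.247 and 0.259 CPM and then 2.37, 4.45 and 4.96 CPM. Its call was lost without each of the day 1 libraries (adjusted p 0.0628 to 0.0810). Icos, the member of the T cell list that fell, held 4.68, 4.86 and 4.215 CPM at day 1 and 0.72, 0.11 and 0.03 CPM at day 7 (log2 fold change -3.96, SE 1.05, adjusted p = 0.0356). With a library left out, the Icos call held only without day 7 replicate 1 (adjusted p 0.0658 to 0.140 in the other fits).

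Class II antigen presentation genes, which display peptides on macrophages and dendritic cells, rose in part. H2-Aa (ENSMUSG00000036594), the alpha chain of a class II molecule, held 8.57, 6.59 and 9.76 CPM at day 1 and 133, 172 and 104 CPM at day 7 (log2 fold change 4.03, SE 0.37, adjusted p = 1.44e-05). Cd74, the chain that guides class II molecules, held 50.6, 12.2 and 42.6 CPM and then 258, 572 and 351 CPM (log2 fold change 3.49, SE 0.43, adjusted p = 0.000127). H2-Ab1 and H2-Eb1, class II beta chains, rose by log2 fold changes of 2.53 and 2.88. In these genes the lowest day 7 library stood above the highest day 1 library. The list had 9 of 27 members higher and none lower in edgeR, DESeq2 or limma-voom (0 lower at an unadjusted p under 0.05), and 8, 5, 5, 7, 7 and 6 higher with libraries left out in turn. Genes of this family are alike in sequence, so their levels are uncertain, as multi-aligned reads were tallied apart.

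The Y box, a CCAAT box bound by the factor NF-Y, is part of the known class II promoter, and its letters CCAATCA, which contain the shorter CCAAT, were searched on both strands. They stood in 7.82% of all promoter windows and in 9.22% of those of tested genes. Only 19 of the 27 list genes had a window, a small set, and 11 of their 21 windows held the letters. Of the class II genes that passed, 4 had a window, and 3 of their 5 windows held them. Among the other lists searched the share ran from 0% (proximal tubule metabolism) to 36.8% (mitosis, with no gene called). H2-Aa (chr17:34287811-34287930 on the minus strand), H2-Eb1 (chr17:34305749-34305868 on the plus strand) and H2-DMb2 (chr17:34145100-34145219 on the plus strand) are shown from RefSeq GRCm38.p6 with the match in capitals, since all 3 genes rose and the match lies 50, 61 and 92 bases before the gene start.
H2-Aa: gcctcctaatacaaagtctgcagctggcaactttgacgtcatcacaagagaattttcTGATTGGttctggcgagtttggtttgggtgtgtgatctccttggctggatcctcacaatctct
H2-Eb1: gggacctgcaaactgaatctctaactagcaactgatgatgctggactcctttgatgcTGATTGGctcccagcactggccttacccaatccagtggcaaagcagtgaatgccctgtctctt
H2-DMb2: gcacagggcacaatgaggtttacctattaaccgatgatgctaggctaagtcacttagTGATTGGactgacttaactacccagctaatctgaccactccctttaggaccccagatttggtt
The letters read TGATTGG, the opposite strand of CCAATCA, in all 3. The rise of H2-DMb2, the beta chain of a helper that loads peptides onto class II molecules, had a log2 fold change of 1.82 (adjusted p = 0.0273) and passed without day 7 replicate 2 but in no other of the fits with a library left out (adjusted p 0.0501 to 0.110).

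Some genes of signals that draw leukocytes rose. Ccl2 (ENSMUSG00000035385), the main attractant of monocytes, held 1.27, 1.26 and 2.88 CPM at day 1 and 15.8, 15.1 and 25.5 CPM at day 7 (log2 fold change 3.37, SE 0.55, adjusted p = 0.00159), from an untreated mean of 0.0939 ± 0.0409 CPM. Cxcl12, which retains leukocytes in tissue and is made by stromal cells, held 2.93, 3.19 and 6.54 CPM and then 26.1, 30.6 and 44.6 CPM (log2 fold change 2.99, SE 0.53, adjusted p = 0.0029), close to its untreated 44.3 ± 11.9 CPM. Of 37 chemokine and cytokine genes tested 7 rose and none fell in edgeR or DESeq2, while limma-voom called 1 lower (1 lower at an unadjusted p under 0.05). The rises numbered 3, 4, 3, 5, 5 and 5 with libraries left out in turn. C7, a late component of complement made by fibroblasts, held 0.262, 0 and 0.318 CPM and then 5.53, 5.31 and 6.94 CPM (log2 fold change 4.93, SE 0.78, adjusted p = 0.00118), with a log2 fold change of 4.31 without day 1 replicate 2 and 5.69 without day 1 replicate 3.

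**Figure D4:**
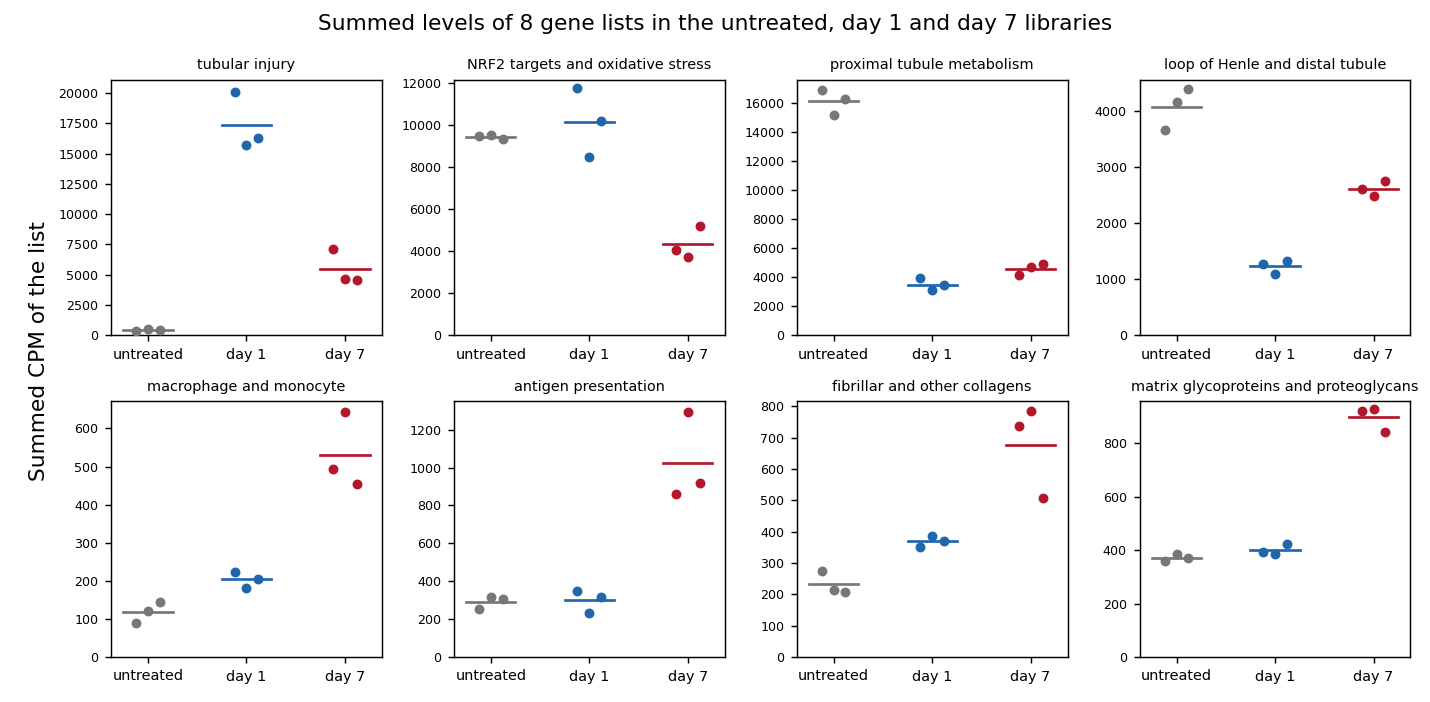
Summed CPM of the members of 8 gene lists (vertical axes from 0, scaled per list) in the 3 untreated, 3 day 1 and 3 day 7 libraries. Points are libraries and bars are group means. Macrophage, antigen presentation and matrix sums are higher in every day 7 library than in every day 1 library, and the injury and NRF2 sums are lower. Spp1 makes up most of the injury sum at day 1 and day 7.

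Of the 51 tested matrix glycoproteins and proteoglycans 11 rose between the times, and the median log2 fold change of the list was 1.47. Fn1 (ENSMUSG00000026193), fibronectin, an early scaffold of scar matrix, held 22.5, 20.8 and 26.5 CPM at day 1 and 99.7, 118 and 65.6 CPM at day 7. The lowest day 7 library was well above the highest at day 1 (log2 fold change 2.02, SE 0.35, adjusted p = 0.00257), and untreated kidney held 8.68 ± 1.57 CPM. Outside that list, Spon1, a secreted matrix-attached protein, held 3.10, 2.70 and 6.52 CPM and then 86.5, 90.3 and 41.6 CPM (log2 fold change 4.14, SE 0.49, adjusted p = 0.000127), and within it Fbln5, an elastic fibre protein, held 4.24, 2.48 and 3.40 CPM and then 24.1, 31.3 and 14.1 CPM (log2 fold change 2.78, SE 0.56, adjusted p = 0.00756). Frem1, a basement membrane protein not on the list, rose from 1.30 ± 0.835 to 23.7 ± 1.92 CPM. Ogn, a small leucine-rich proteoglycan of the matrix, rose from 1.18 ± 0.777 to 11.1 ± 6.74 CPM (n = 3 each, log2 fold change 3.20, SE 0.65, adjusted p = 0.0077). At day 7, Spon1 and Frem1 were higher than untreated kidney (log2 fold changes 3.15 and 2.53, adjusted p = 0.00049 and 0.00441). Fbln5 and Ogn did not pass against it (0.59 and 0.02, adjusted p = 0.57 and 0.992). Their untreated means were 15.3 ± 2.29 and 10.99 ± 3.455 CPM. Both had been lower than untreated at day 1 (log2 fold changes -2.19 and -3.18, adjusted p = 0.014 and 0.0032).

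The collagens differed by gene. Col1a1, the main chain of type I collagen, held 25.5, 20.2 and 27.3 CPM at day 1 and 46.2, 76.8 and 32 CPM at day 7 and did not pass (log2 fold change 1.08, SE 0.58, adjusted p = 0.327). Col1a2, the other chain, held 22.3, 14.3 and 26.6 CPM and then 81.2, 82.1 and 59.7 CPM (log2 fold change 1.82, SE 0.41, adjusted p = 0.0156), and lost its call without day 1 replicates 1 and 2 and day 7 replicate 2 (adjusted p 0.0522 to 0.0878). Col3a1, type III collagen, held 31.7, 13 and 23.3 CPM and then 84.2, 95.6 and 41 CPM (log2 fold change 1.70, SE 0.39, adjusted p = 0.0177), and lost it in 4 of the 6 fits, all but those without day 1 replicate 1 or day 7 replicate 3 (adjusted p 0.0581 to 0.0940). Of the 23 tested collagen genes 6 rose, none fell in edgeR, DESeq2 or limma-voom (0 lower at an unadjusted p under 0.05) and the summed level went from 350.0 to 386 to 507 to 786 CPM. With libraries left out in turn 3, 1, 1, 3, 1 and 5 rose, and the same count over the 51 glycoproteins and proteoglycans, of which 11 rose, was 10, 7, 10, 9, 8 and 11.

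Among genes that finish collagen the direction of the calls turned with the scaling, though not that of the median: 3 fell and none rose with TMM (median log2 fold change 0.69), and none fell and 5 rose with library totals alone (median 1.15). Of 25 tested genes of collagen processing and crosslinking none rose in the edgeR test, 5 were higher at an unadjusted p under 0.05, and DESeq2 and limma-voom called 4 and 1 higher. The 3 that fell were P4ha2 and Plod2, which hydroxylate collagen, and Tgm2, a crosslinking enzyme. P4ha2 fell from 13.6 ± 2.83 to 4.58 ± 0.586 CPM, Plod2 from 46.4 ± 4.25 to 18.7 ± 5.11 CPM and Tgm2 from 96.3 ± 1.53 to 37.7 ± 5.89 CPM. With libraries left out in turn the number was 1, 2, 1, 2, 0 and 0. P4ha2 passed without day 1 replicates 2 or 3, Plod2 without day 1 replicates 1 or 2 or day 7 replicate 1, and Tgm2 without day 7 replicate 1, and in no other of these fits.

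Proteases and their inhibitors moved in both directions. Mmp2 (ENSMUSG00000031740), a gelatinase of fibroblasts, held 0.131, 0.0675 and 0.0597 CPM at day 1 and 8.42, 7.41 and 5.69 CPM at day 7 (log2 fold change 6.41, SE 1.17, adjusted p = 0.00351), a rise from near the floor. Timp2 and Timp3, inhibitors of such proteases, moved apart: Timp2 held 9.71, 8.91 and 8.17 CPM and then 29.7, 42 and 39.4 CPM (log2 fold change 2.05, SE 0.31, adjusted p = 0.000914), while Timp3 held 696, 782 and 795 CPM and then 244, 292 and 268 CPM (log2 fold change -1.50, SE 0.21, adjusted p = 0.000304). Timp1, an inhibitor often raised in fibrosis, held 7.92, 4.61 and 11.1 CPM and then 2.14, 1.82 and 4.86 CPM and did not pass (log2 fold change -1.42, SE 0.71, adjusted p = 0.293). Serpine2, an inhibitor of thrombin and plasminogen activators, rose from 1.79 ± 0.531 to 18.6 ± 7.04 CPM (n = 3 each; log2 fold change 3.38, SE 0.64, adjusted p = 0.00489). The list had 5 of 29 members higher and 2 lower.

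Several fibroblast genes rose, while the contractile marker of myofibroblasts did not pass. Cdh11 (ENSMUSG00000031673), cadherin 11, held 2.19, 1.73 and 2.17 CPM at day 1 and 28.9, 21.2 and 7.04 CPM at day 7, the third day 7 library lying well below the other two but above day 1 (log2 fold change 3.23, SE 0.65, adjusted p = 0.00783). Untreated kidney held 2.93 ± 1.56 CPM and day 14 held 33.6 ± 9.22 CPM. Pdgfra, the PDGF receptor of fibroblasts, held 1.49, 1.80 and 2.09 CPM and then 12.4, 26.4 and 15.8 CPM (log2 fold change 3.34, SE 0.65, adjusted p = 0.00644). Tcf21, a transcription factor of stromal cells and podocytes, rose from 1.05 ± 0.514 to 6.14 ± 1.44 CPM. At day 7, Cdh11 was higher than untreated kidney (log2 fold change 2.72, adjusted p = 0.0138). Pdgfra and Tcf21 did not pass against it (both 0.88, adjusted p = 0.434 and 0.268). Their untreated means were 9.92 ± 10.7 and 3.35 ± 0.976 CPM. Both had been lower than untreated at day 1 (log2 fold changes -2.46 and -1.65, adjusted p = 0.0167 and 0.0271).

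Acta2, smooth muscle actin, held 4.99, 3.28 and 21 CPM at day 1 and 10.2, 3.88 and 7.29 CPM at day 7, overlapping and with no pass (log2 fold change -0.45, SE 0.73, adjusted p = 0.803). Its direction turned with library totals as the scaling (0.04) and without day 1 replicate 3 (0.79). Tgfb1, the growth factor that drives fibroblast activation, held 1.53, 2.90 and 1.03 CPM and then 2.47, 1.64 and 2.19 CPM (log2 fold change 0.20, SE 0.65, adjusted p = 0.913). Among 48 TGF-beta, BMP and activin genes 1 rose (2.08%) and 2 fell (4.17%), shares near the 2.66% and 1.85% of all genes, and none fell with library totals alone. The rise was Tgfb2, another ligand of the family, whose log2 fold change of 2.60 (adjusted p = 0.0491) became 1.14 without day 7 replicate 1 and whose call was lost in 4 of the 6 fits with a library left out (adjusted p 0.119 to 0.406). Of the 37 fibroblast genes tested 6 rose, 1 of them Dpep1, which is also on the proximal transport list and is described there, against 4, 5, 6, 5, 6 and 5 with libraries left out in turn, and none fell in edgeR or DESeq2, while limma-voom called 1 lower (1 at an unadjusted p under 0.05).

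Pltp (ENSMUSG00000017754), the phospholipid transfer protein that moves lipids between lipoproteins, held 0, 0.0450 and 0.0597 CPM at day 1 and 2.20, 5.77 and 1.80 CPM at day 7 (log2 fold change 6.21, SE 0.98, adjusted p = 0.00119), a low level throughout. The log2 fold change dropped to 5.51 when day 7 replicate 2, its highest library, was left out. Abca9, a lipid-handling membrane transporter, held 0.131, 1.17 and 0.716 CPM and then 21.8, 25.2 and 13 CPM (log2 fold change 4.84, SE 0.64, adjusted p = 0.000224), or a log2 fold change of 5.44 when day 1 replicate 2 was left out. Among the 30 tested genes of cholesterol synthesis and lipid transport 3 rose, Pltp, Apoe and Abcg1, and 2 fell.

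Between the times, 1 gene of the proliferation lists passed. Mki67, the proliferation antigen, held 15.4, 7.90 and 13.3 CPM at day 1 and 13.9, 13.4 and 12.8 CPM at day 7 (log2 fold change 0.13, SE 0.39, adjusted p = 0.904). None of 44 mitosis genes passed in edgeR, DESeq2 or limma-voom (1 higher and 1 lower at an unadjusted p under 0.05). Of 39 replication genes 1 fell, Uhrf1, which copies DNA methylation, from 6.19 ± 2.18 to 1.35 ± 0.337 CPM (n = 3 each; log2 fold change -2.18, SE 0.46, adjusted p = 0.0104). In the replication list 11 were lower and 1 higher at an unadjusted p under 0.05, DESeq2 called 3 lower, and the median log2 fold change was -0.58 with 30 of the 39 below 0, or a median of -0.02 and none lower with library totals alone. Against untreated kidney, 8 of the 44 mitosis genes were higher at day 1 (background 5.09%) and 7 at day 7 (background 3.87%). Immediate early genes, which respond within minutes of a stimulus, were likewise raised in part, with 14 of 38 above untreated at day 1 and 15 at day 7 (the same backgrounds) and none that passed between the times in edgeR or limma-voom, although DESeq2 called 2 higher and 5 higher and 3 lower passed at an unadjusted p under 0.05.

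Genes of energy metabolism lay partly below untreated kidney at both times. None of 52 oxidative phosphorylation genes passed between the times in edgeR, DESeq2 or limma-voom (0 at an unadjusted p under 0.05). Against untreated kidney 18 of them were lower at day 1 (background 5.56%) and 20 at day 7 (background 3.85%). Fatty acid oxidation had 3 of 44 genes lower at day 7 than at day 1 and none rose in edgeR, DESeq2 or limma-voom (4 higher at an unadjusted p under 0.05), and 16 and 18 were lower than untreated at day 1 and day 7 (the same backgrounds). The falls between the times numbered 0, 0, 0, 1, 0 and 1 with libraries left out in turn and 0 with library totals alone. Among 27 glycolysis and lactate genes 5 fell and 1 rose, but the number that fell was 2, 3, 3, 2, 2 and 0 with libraries left out in turn and 0 with library totals as the only scaling, under which the median of the list turned from -0.21 to 0.33. The lactate transporters moved apart: Slc16a7 held 13.5, 9.88 and 9.31 CPM at day 1 and 44.3, 46.2 and 73.6 CPM at day 7 (log2 fold change 2.33, SE 0.42, adjusted p = 0.00309), while Slc16a1 held 12.9, 23.7 and 12.6 CPM and then 3.35, 4.70 and 3.26 CPM (log2 fold change -2.12, SE 0.47, adjusted p = 0.0137). For Slc16a1 the call was lost without day 1 replicate 2 and without day 7 replicates 1 and 3 (adjusted p 0.0577 to 0.0723).

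Genes of the folate pathway, whose substrate had been injected, showed no call between the times. None of the 36 passed in edgeR; 2 were higher and 3 lower at an unadjusted p under 0.05, DESeq2 called 1 higher and 1 lower and limma-voom 1 lower. The stress pathways of the endoplasmic reticulum held 1 rise and 1 fall among 32 genes (3.12% each way, near the shares of all genes), and no fall with library totals alone. Xbp1, the factor that drives the unfolded protein response, held 131, 136 and 121 CPM at day 1 and 65.5, 40.7 and 43.2 CPM at day 7 (log2 fold change -1.38, SE 0.26, adjusted p = 0.0053), while Herpud1, a membrane protein of the same organelle that helps clear misfolded proteins, held 14.4, 9.52 and 17.5 CPM and then 41.3, 43.5 and 44.7 CPM (log2 fold change 1.65, SE 0.32, adjusted p = 0.00654). In neither gene did the groups overlap, and with library totals alone the log2 fold change of Xbp1 was -0.84 and did not pass (adjusted p = 0.12).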

How the data were processed

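Total RNA from frozen kidney was extracted with TRIzol, and 10 ng per sample was amplified with NuGEN SPIA reagents, per the labels' protocols. Per the submitters' processing notes, the tools were cutadapt, TopHat2 2.07, HTSeq and DESeq, with build NCBIM37. The raw counts per gene that the authors deposited were used for every test, after the 5 HTSeq tally entries were dropped. The normalized tables were left aside. Whether counting used strand is not given in the sources used here, so overlapping and antisense genes are uncertain. Symbols came from GENCODE M21, for 32919 of 37991 identifiers. Its build differs, so gene coordinates are not given, and promoter windows are RefSeq GRCm38.p6.

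Counts were fitted with edgeR 4.0.16 (quasi-likelihood F test, two-sided, TMM scaling, low-count filter filterByExpr by group) in a single model of the 18 libraries and 6 groups, with Benjamini-Hochberg adjustment over all genes tested and a threshold of 0.05. Levels are CPM with TMM scaling. Named genes were the 15 steepest rises and the 15 steepest falls that passed, had a symbol, reached 10 CPM and did not overlap, up to 5 members per list, up to 2 that moved against it, and a panel of 20 genes; other genes were named after their values were seen. The members, the 36 lists (1314 entries, 1303 found) and the rule were chosen with earlier results of these data known. The tests were checked on simulated counts. Same-numbered libraries of day 1 and day 7 showed no pairing in a correlation over all genes. Copies were looked for among replicates of untreated kidney, day 1 and day 7, and none was found. Alternatives (DESeq2 1.42.0, limma-voom 3.58.1, other scalings, filters and left-out libraries) are given below. R 4.3.3, Python 3.11.15, pandas 2.3.3 and matplotlib 3.10.9 were used.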

Additional observations from a re-analysis of the deposited data

How the results depend on the processing

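Of the 759 genes that differed, 728 were shared with the 756 under RLE scaling, 748 with 1503 under DESeq2 (951 higher, 552 lower), 673 with 937 under limma-voom, 562 with 712 when the 6 libraries were fitted alone, and 529 with 1209 under library totals alone (1128 higher, 81 lower). Without the low-count filter 882 differed, with a mean of at least 1 CPM 877, without mitochondrial genes 753 and after thinning to equal depth 715. With the replicate number as a block, 652 differed (395 higher, 257 lower), 621 of them shared. Same-numbered libraries of day 1 and day 7 correlated between -0.013 and 0.022, and differently numbered ones between -0.0382 and 0.0321. A correlation over all genes cannot exclude a shared batch that affects part of the genes. With 1 library left out, 363 to 505 differed, 179 to 342 higher and 134 to 233 lower. Against untreated kidney, the 1792 genes at day 1 became 1164 to 1724 and the 1298 at day 7 became 607 to 1220, where DESeq2 gave 2162 and library totals alone 2565. Of 140 named genes, 132 passed, and 62 of these did so whichever library was left out, while 70 failed in at least 1 such fit. Direction turned for Acta2 (0.0381 under library totals alone; -0.88 to 0.79 with libraries left out), Tgfb1 (-0.0907 to 0.708) and Mki67 (-0.111 to 0.335), none of which passed; the cause was not tested. Depth limits genes near 0 reads at a time, such as Fgb, Fcgr4 and Pltp.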

Other observations

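Families of genes that make and remove protein were picked by symbol after their values were seen, and their falls are set against the 1.85% of all genes that fell. Of the 16824 genes tested, 8236 had a lower mean at day 7 than at day 1. All 20 cytosolic aminoacyl-tRNA synthetases, which load amino acids onto transfer RNA, had a log2 fold change below 0, and 5 passed, with a median of -0.90 (-0.38 with library totals alone). Nars, the asparagine enzyme, fell from 32.3 ± 8.82 to 15.1 ± 2.68 CPM (adjusted p = 0.0350). Of 37 proteasome subunits 5 fell, with 31 below 0 and a median of -0.61 (-0.09 with library totals alone). Of 65 translation factors 9 fell and of 77 ribosomal protein genes 2 fell (2.60%, near that share), with medians of -0.48 and -0.43 that turned to 0.04 and 0.10 with library totals alone. Of 12 protein-coding genes of the mitochondrial genome 8 fell, with a median of -1.05 (-0.52 with library totals alone). The 14 lysosomal cathepsins and legumain had no common direction: 3 fell, 1 rose (Ctss) and 7 lay below 0, with a median of -0.08 (0.45 with library totals alone). Since these families were chosen for what they showed, they get no test.

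Some called genes owed their mean to 1 library. In 40 of the 759 the highest library was at least 5 times the next within its group, 29 of them genes that rose and 11 that fell. Def6, a signalling protein of lymphocytes, held 72.5 CPM in day 7 replicate 1 and 1.46 CPM in the next library. Slc2a4, the insulin-responsive glucose transporter, held 116 CPM in that library and 6.28 CPM in the next. Itgae, an integrin of resident lymphocytes, held 57.8 and 5.10 CPM. Vamp3, a vesicle protein that fell, held 430 CPM in day 1 replicate 1 and 40.9 CPM in the next. Their values in the other libraries do not carry the sizes of change that the fit gives.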
